A study of Mus musculus with 25 samples.

Results

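Hepatocytes of Stat3-floxed mice given an IL-6 plasmid were compared with hepatocytes of wild-type mice given a GFP plasmid, gene by gene, by bulk RNA sequencing. The comparison rested on 5 libraries, 3 IL6_STAT3KO and 2 GFP, chosen by their labels among the 13 hepatocyte libraries and the 25 samples of the series, and it covered all 14339 genes that passed a filter on low counts. The IL6_STAT3KO mice (strain C57BL/6J 129SV, genotype Stat3_floxed) had received AAV-TBG-Cre 2 weeks and the IL-6 plasmid 1 week before. The GFP mice (C57BL/6J 129SV, WT) had received a GFP plasmid 1 week before and no AAV. Plasmids were given by HTVi, hydrodynamic tail vein injection, which forces a large volume of DNA solution into the liver so that some hepatocytes take it up and express it. The TBG promoter of the viral vector is active in hepatocytes, so Cre was directed to these cells and Stat3 was left in the other cells of the liver. Genotype, viral vector and plasmid all differed between the IL6_STAT3KO and GFP groups, and their effects cannot be told apart in this comparison. Wild-type mice with the IL-6 plasmid and no AAV (IL6, n = 3), Stat3_floxed mice with AAV-TBG-Cre and 1 week of DDC diet (DDC_STAT3KO, n = 3), and Stat3_floxed mice with AAV-TBG-GFP and the same diet (DDC, n = 2) are given beside it. DDC is a feed additive that injures bile ducts.

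IL-6 binds its receptor and the shared subunit gp130, whose JAK kinases phosphorylate STAT3, and in hepatocytes STAT3 switches on the acute phase proteins of blood plasma. Interferons bind other receptors that also use JAK kinases. They induce the guanylate-binding proteins (GBPs) and immunity-related GTPases (IRGs), which attack vacuoles holding intracellular parasites and bacteria, together with antiviral proteins and the machinery that presents antigen on MHC molecules. SOCS3, a STAT3 target, shuts off gp130 signalling, and SOCS1 shuts off interferon signalling.

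The 5 libraries held 14714513 to 17459452 counts, and mitochondrial genes took 5.92, 4.83 and 4.16% of them in the IL6_STAT3KO libraries, against 5.56 and 5.603% in the GFP libraries. Levels below are in CPM, counts divided by the TMM-scaled library size and brought to a common total, listed by replicate number. A gene counted as called where its adjusted p (Benjamini-Hochberg) was under 0.05 in an edgeR quasi-likelihood fit of all 13 hepatocyte libraries, and a pair of values joined by ± is a log2 fold change with its standard error. The labels do not say that replicates came from separate animals, so p-values cover only the spread among these libraries, and that spread may be technical. In bulk samples, fewer cells of a type and less RNA per cell cannot be told apart. IL6 replicate 3 and DDC_STAT3KO replicate 3 stood apart from their groups. Neither belongs to the IL6_STAT3KO or GFP group, but both enter the shared estimate of spread. IL6 replicate 3 also enters the comparisons that use the IL6 group, and DDC_STAT3KO replicate 3 those that use the DDC_STAT3KO group. The IL6_STAT3KO libraries were also spread. Their log levels correlated at 0.9573 to 0.9721 between replicates, beside 0.9482 to 0.9832 within IL6 and 0.9831 within GFP.

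Stat3, the floxed gene (chromosome 11, 100885098 to 100939540, reverse strand, GRCm38), stood at 116, 96 and 116 CPM in the IL6_STAT3KO libraries, against 109 and 98.8 CPM in the GFP libraries. These ranges overlapped, and the log2 fold change was 0.07 ± 0.23 (adjusted p = 0.90). Counts summed over the whole gene do not show whether the deleted exons were read, so this level does not check the deletion. The IL6 libraries held 339.5, 351 and 424 CPM of Stat3, all above both other groups. Il6 reads, from the plasmid or the gene, came to 0.743, 0.559 and 1.05 CPM in the IL6_STAT3KO libraries and 4.89, 3.20 and 351 CPM in the IL6 libraries, against 0 and 0.0688 CPM in the GFP libraries. The IL6_STAT3KO libraries thus held fewer Il6 reads than any IL6 library, and the part of that difference in the results below was not tested.

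Of the 14339 genes, 324 were called higher in IL6_STAT3KO hepatocytes (2.26%) and 124 lower (0.865%), with a median log2 fold change over all genes of 0.02. Called higher were 9 of 11 GBPs, 8 of 10 IRGs and 7 of 7 MHC class II genes tested, and 1 of 35 acute phase genes raised by IL-6. Among called genes at a mean of 20 CPM or more whose groups did not overlap, leaving out predicted genes (symbols such as Gm12250), the largest increases were in Ubd, Tgtp1, Tgtp2, Gbp8, Cd74, Ly6a, H2-Aa, Gbp2, H2-DMa and Ifi44. The largest decreases were in Mup15, Mup14, Serpina4-ps1, Hsd3b5, Mup17, Mup3, Wsb1, Nr1d1, Hsd3b2 and Slco1a1. The number of calls leaned on the 2 GFP libraries. Without GFP replicate 1, 78 genes were called higher and 11 lower, and without GFP replicate 2, 88 and 14. The counts were 215 and 35 without IL6_STAT3KO replicate 3, and 218 and 40 without replicate 2. For scale, IL6 hepatocytes differed from the same GFP libraries in 1964 genes called higher (13.7%) and 1755 lower (12.2%).

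**Figure D1:**
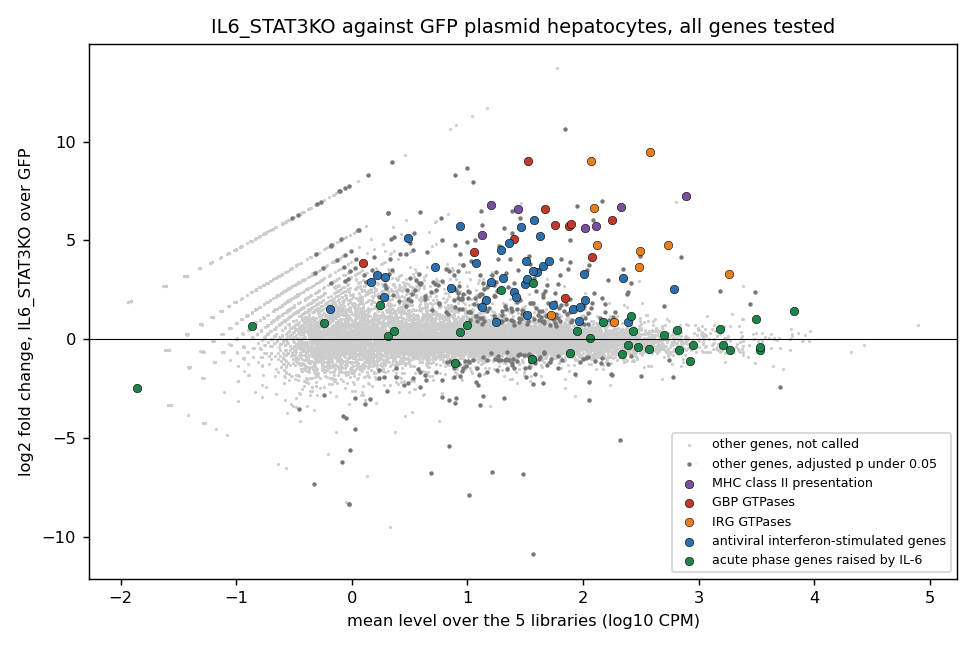
Log2 fold change of IL6_STAT3KO over GFP hepatocytes (vertical axis) against the mean level over the 5 libraries in log10 CPM (horizontal axis), 1 point per gene tested, with 5 gene lists in colour. GBP, IRG and MHC class II genes lie at the top of the plot, up to log2 values of 9.02, 9.49 and 7.26, while acute phase genes scatter around 0.

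The IRGs rose together. Of 10 IRG genes tested, 8 rose, with a median log2 fold change over all 10 of 4.61, and all 8 were still called whichever of the 5 libraries was left out. Gm12250, a member of this family, had 224, 151 and 237 CPM in the IL6_STAT3KO libraries, against 1.66 and 2.34 CPM in the GFP libraries. The groups lay far apart, and the log2 fold change of 6.67 ± 0.36 had the smallest adjusted p of any IRG (4.2e-06). Tgtp1 had 627, 498 and 758 CPM in the IL6_STAT3KO libraries, against 0.704 and 1.03 CPM in the GFP libraries, and its near-identical neighbour Tgtp2 had 169, 143 and 271 CPM, against 0.384 and 0.344 CPM. Both were close to absent with the GFP plasmid, with log2 fold changes of 9.49 ± 0.74 and 9.03 ± 0.72 (adjusted p = 7.8e-05 for each), and counting may have split reads between them. Igtp, also known as Irgm3, which guards the cell's own membranes against the other IRGs, had 989, 585 and 1048 CPM in the IL6_STAT3KO libraries, against 33.3 and 31.4 CPM in the GFP libraries (4.76 ± 0.38, adjusted p = 7.8e-05). Its relative Irgm1 had 488, 357 and 607 CPM, against 37.9 and 37.7 CPM (3.68 ± 0.31, adjusted p = 1.0e-04). The IRG members that did not pass, Gm4951 and F830016B08Rik, had log2 fold changes of 0.90 and 1.22 and higher GFP levels than most of the family, at 134 and 108 CPM and 28.5 and 30.8 CPM.

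Among GBP, IRG and antiviral genes whose promoter held a match to a binding motif of interferon-activated factors, those with the smallest adjusted p, all of them IRGs, are shown because they moved together here. Each line is the 250 bases before the RefSeq start on the gene's own strand, 5′ to 3′ (GRCm38.p6). Capitals mark matches to a pair of GAAA blocks with any 2 bases between them, the interferon-stimulated response element read by IRF factors, and to TTCNNNGAA, the GAS element read by STAT dimers. Both were searched on both strands, and none of the marked matches overlap.
Gm12250 (chr11:58183593-58183842, forward): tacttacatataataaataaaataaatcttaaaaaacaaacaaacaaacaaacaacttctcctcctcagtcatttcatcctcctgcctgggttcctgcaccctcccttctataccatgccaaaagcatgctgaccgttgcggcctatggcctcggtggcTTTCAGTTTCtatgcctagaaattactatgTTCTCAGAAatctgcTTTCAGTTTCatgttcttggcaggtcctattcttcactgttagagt
Tgtp1 (chr11:48992247-48992496, reverse): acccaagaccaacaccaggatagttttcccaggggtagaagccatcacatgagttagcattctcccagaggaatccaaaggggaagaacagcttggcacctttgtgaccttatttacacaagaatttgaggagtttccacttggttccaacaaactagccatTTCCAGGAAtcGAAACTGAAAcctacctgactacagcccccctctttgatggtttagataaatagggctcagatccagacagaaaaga
Igtp (chr11:58199306-58199555, forward): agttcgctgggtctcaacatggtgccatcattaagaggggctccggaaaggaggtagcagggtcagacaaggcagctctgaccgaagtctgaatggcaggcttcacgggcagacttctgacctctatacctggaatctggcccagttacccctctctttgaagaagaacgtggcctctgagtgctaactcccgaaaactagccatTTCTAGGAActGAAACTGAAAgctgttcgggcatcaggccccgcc
Tgtp2 (chr11:49064213-49064462, reverse): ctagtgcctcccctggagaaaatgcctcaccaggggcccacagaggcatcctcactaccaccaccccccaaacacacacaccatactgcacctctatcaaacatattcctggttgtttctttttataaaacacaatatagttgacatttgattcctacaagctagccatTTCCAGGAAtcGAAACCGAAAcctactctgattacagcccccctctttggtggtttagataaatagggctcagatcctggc
In Tgtp1, Igtp and Tgtp2 the GAS match lay 2 bases upstream of the response element match, at 88, 45 and 81 bases before the start. Gm12250 held 2 response element matches, at 91 and 46 bases, with a GAS match between them. Over all 27025 promoters of the table, 3.46% held the response element motif and 8.13% the GAS motif. Of the 242 genes called higher that had a promoter entry, 36 (14.9%) held the response element motif and 28 (11.6%) the GAS motif, against 4.17% and 6.25% of the 96 called lower. The response element motif was held by 5 of 5 GBP genes with an entry, 6 of 7 IRG genes, 10 of 26 antiviral genes, 3 of 18 MHC class I genes and 1 of 7 interferon regulatory factors, and none of the 4 MHC class II genes with an entry held either motif. A match is a string of letters and does not show that a factor was bound.

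The GBPs rose as a family. Of 11 tested, 9 were called higher, with a median log2 fold change of 5.76, with 7 called without GFP replicate 1 and 7 without GFP replicate 2. Gbp2 had 57.8, 49.7 and 127 CPM in the IL6_STAT3KO libraries, against 0.704 and 0.894 CPM in the GFP libraries (6.61 ± 0.58, adjusted p = 1.1e-04). Gbp3 had 99.5, 91.2 and 183 CPM, against 1.66 and 2.96 CPM (5.76 ± 0.54, adjusted p = 1.9e-04), and Gbp7 had 179, 131 and 262 CPM, against 8.83 and 12.4 CPM (4.16 ± 0.37, adjusted p = 1.3e-04). Replicate 3 held the highest level of each of these among the IL6_STAT3KO libraries, and no group overlapped. Gbp6 and Gbp9 rose by log2 values of 5.76 ± 0.69 and 5.82 ± 0.62, and Gbp8 by 9.02 ± 1.10 over a GFP level of 0.064 and 0.138 CPM. Gbp2b, which did not pass, varied most within the group, with 39, 0.31 and 83.6 CPM in the IL6_STAT3KO libraries and 0.768 and 1.65 CPM in the GFP libraries. Gbp11 did not pass either (adjusted p = 0.15). Members of this family are similar in sequence and sit in clusters on chromosomes 3 and 5, so reads may be shared between them.

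Antiviral interferon-stimulated genes followed. Of 39 tested, 29 were called higher and none lower, and 37 had every IL6_STAT3KO library above both GFP libraries, where 22.2% of all genes did. The median log2 fold change was 3.03. The call count fell to 10 without GFP replicate 1 and 13 without GFP replicate 2. Ifi44, a cytosolic protein with antiviral activity, had 48.8, 50.6 and 86.4 CPM in the IL6_STAT3KO libraries, against 1.02 and 0.825 CPM in the GFP libraries (6.05 ± 0.58, adjusted p = 1.9e-04). Zbp1, a sensor of Z-form nucleic acid that can start necroptosis, had 52.6, 64.2 and 90.3 CPM, against 1.92 and 1.79 CPM (5.21 ± 0.56, adjusted p = 3.6e-04). The groups were separate for both, and for Oasl2, a member of the oligoadenylate synthetase family, at 49.4, 25.8 and 66.8 CPM against 0.832 and 1.03 CPM. Log2 fold changes of the called members ran from 0.93 for Trim25 to 6.05 for Ifi44, with 3.30 for Parp14 and 3.03 for Isg15, a ubiquitin-like modifier. Classical members that did not pass included Rsad2, at 11.5, 6.64 and 36.4 CPM in the IL6_STAT3KO libraries and 6.85 and 4.95 CPM in the GFP libraries (adjusted p = 0.16), and Bst2, at 231, 371 and 294 CPM and 165 and 164 CPM (adjusted p = 0.38).

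Among the factors that carry interferon signals, 4 of 8 interferon regulatory factors tested rose. Stat2, part of the type I interferon complex, had 132, 99.96 and 114 CPM in the IL6_STAT3KO libraries and 62.1 and 68.8 CPM in the GFP libraries (0.82 ± 0.35, adjusted p = 0.23). Irf7, which amplifies type I interferon production, had 156, 153 and 222 CPM, against 12.6 and 13.7 CPM (3.75 ± 0.33, adjusted p = 1.1e-04). Irf8, best known from myeloid cells, had 23.5, 25.5 and 38.7 CPM, against 1.28 and 2.27 CPM (4.04 ± 0.49, adjusted p = 7.0e-04). Both were called with each library left out. Irf1, an early interferon target, had 97.2, 54.1 and 127 CPM in the IL6_STAT3KO libraries, against 14.6 and 12.4 CPM in the GFP libraries (2.78 ± 0.42, adjusted p = 0.0035), a call lost without GFP replicate 1 (0.067) or replicate 2 (0.085). Irf9 rose by 1.42 ± 0.20 (adjusted p = 0.0020), with 62, 56.6 and 58.1 CPM against 20.03 and 24 CPM, and lost its call without GFP replicate 1 (0.067). Of 10 interferon pathway inhibitors tested, Socs1 and Usp18 were called higher and none lower, with a median log2 fold change of 0.05. Socs1 had 24.4, 8.26 and 31.8 CPM in the IL6_STAT3KO libraries, against 0.256 and 0.206 CPM in the GFP libraries (6.49 ± 0.69, adjusted p = 3.6e-04). Usp18, a protease that removes ISG15 and blocks the type I receptor, rose by 3.46 ± 0.46 (adjusted p = 0.0014; 0.052 without GFP replicate 1).

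None of the 9 interferon, receptor and JAK genes tested passed. Of the 18 genes of that list, 10 had a row in the table, and Ifnk was the interferon gene among them, at 0.0619, 0.124 and 0 CPM in the IL6_STAT3KO libraries and 0.256 and 0 CPM in the GFP libraries, below the filter. Log2 fold changes of the 9 genes tested ran from -0.32 to 1.11. In 3 of the 9 every IL6_STAT3KO library lay above both GFP libraries and in 1 below, where 22.2% and 22.4% of all genes did. Ifnar1 had 42.6, 35.4 and 33.4 CPM in the IL6_STAT3KO libraries and 46.8 and 45.7 CPM in the GFP libraries, and Ifngr1 had 13.2, 17.5 and 13.2 CPM and 14.1 and 9.08 CPM. Ifngr2 had the smallest adjusted p of the list, 0.12, at 23.6, 27 and 27 CPM and 17.5 and 15.3 CPM.

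**Figure D2:**
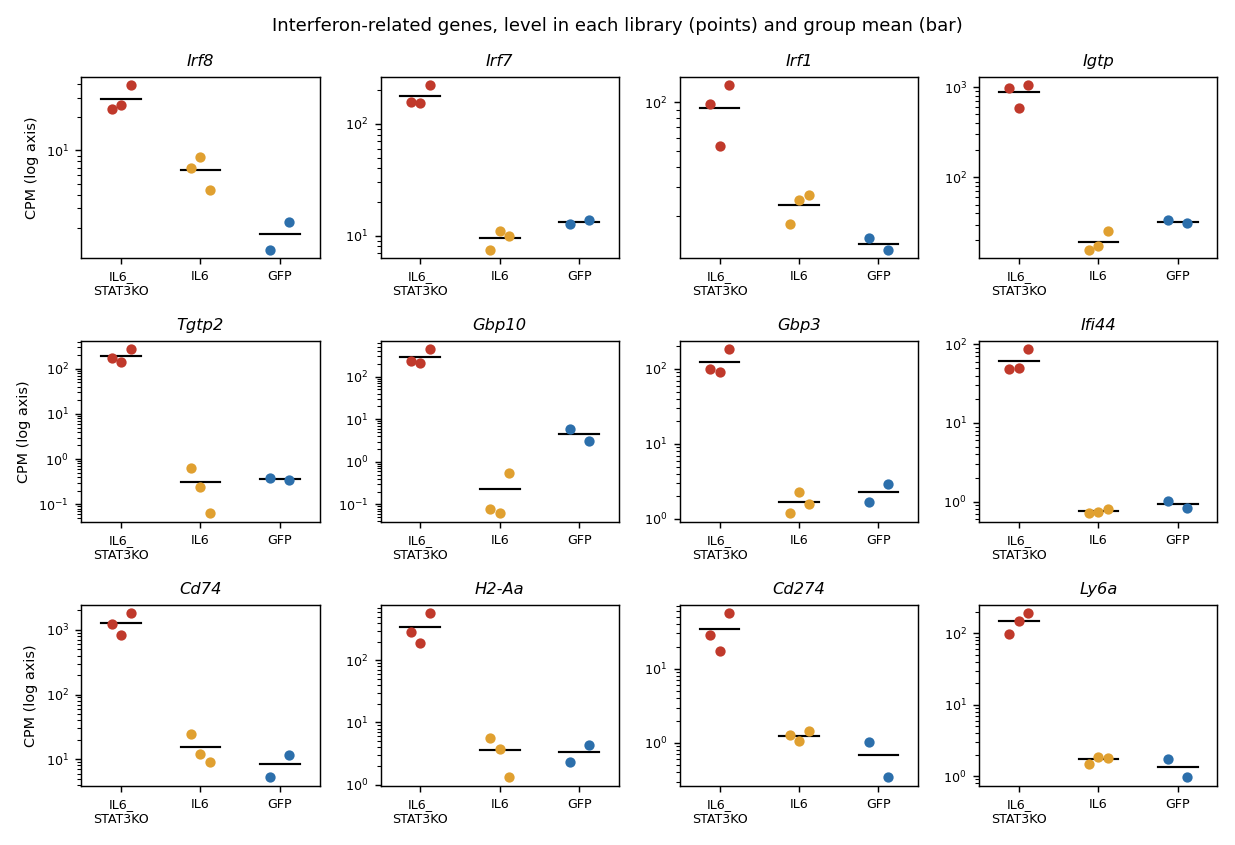
Level of 12 interferon-related genes in each IL6_STAT3KO, IL6 and GFP library (points, CPM on a log axis), with the group mean as a bar. For every gene shown the 3 IL6_STAT3KO libraries lie above all IL6 and GFP libraries, for Irf8 at 23.5 to 38.7 CPM against 4.36 to 8.69 CPM in IL6 and 1.28 and 2.27 CPM in GFP.

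Genes of the MHC class I pathway were raised at both the peptide supply and the presenting molecules. Of 22 tested, 16 were called higher and none lower, with a median log2 fold change of 1.85. The count was 8 without GFP replicate 1 and 8 without GFP replicate 2. Tap1, a subunit of the peptide transporter, had 218, 136 and 156 CPM in the IL6_STAT3KO libraries, against 17.6 and 12.4 CPM in the GFP libraries (3.50 ± 0.38, adjusted p = 3.6e-04). Psmb9, an immunoproteasome subunit, had 105, 95.2 and 149 CPM, against 10.8 and 9.21 CPM (3.54 ± 0.48, adjusted p = 0.0016). The groups did not overlap for either gene. H2-Q6 (3.93 ± 0.31) and H2-Q4 (2.72 ± 0.22), non-classical class I genes, had adjusted p values of 7.8e-05 each and were called with every library left out, though the H2-Q genes are near copies. H2-K1, a classical class I gene that is already abundant, had 4017, 3057 and 4641 CPM in the IL6_STAT3KO libraries, against 1088 and 1162 CPM in the GFP libraries (1.80 ± 0.31, adjusted p = 0.0084; 0.15 without GFP replicate 1 and 0.12 without GFP replicate 2). B2m, the light chain shared by all class I molecules, did not pass (1.01 ± 0.30, adjusted p = 0.092).

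All 7 MHC class II genes tested were called higher, with a median log2 fold change of 6.59. No call held without GFP replicate 1, and 1 held without GFP replicate 2. Each of these fits takes the GFP level from 1 library and assumes that it varies like the other groups. Cd74, the invariant chain that escorts class II molecules, had 1221, 830.2 and 1813 CPM in the IL6_STAT3KO libraries, against 5.25 and 11.6 CPM in the GFP libraries (7.26 ± 1.05, adjusted p = 0.0025; 0.067 without GFP replicate 1). H2-Aa, a class II alpha chain, had 284, 188 and 576 CPM, against 2.30 and 4.40 CPM (6.70 ± 1.05, adjusted p = 0.0043). H2-DMa, which helps load peptide, had 45.7, 28.1 and 63 CPM, against 0.32 and 0.619 CPM (6.59 ± 1.07, adjusted p = 0.0054). In all 7 genes the lowest IL6_STAT3KO library lay above the highest GFP library, and replicate 2 was the lowest of the 3. Ciita, the class II transactivator, had 38.4, 10.2 and 31.3 CPM in the IL6_STAT3KO libraries, against 0.064 and 0.413 CPM in the GFP libraries (6.79 ± 1.35, adjusted p = 0.019).

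Since class II genes mark antigen-presenting cells, markers of those cells are given beside them. None of the 15 macrophage, 15 Kupffer cell, 7 dendritic cell or 1 B cell markers tested was called, but the median log2 fold change was 1.76 for macrophage and 2.15 for Kupffer cell markers. In 8 and 11 of these, every IL6_STAT3KO library lay above both GFP libraries, where 22.2% of all genes did. Clec4f, found on Kupffer cells, had 29.4, 39.4 and 39.2 CPM in the IL6_STAT3KO libraries and 9.53 and 10.4 CPM in the GFP libraries (adjusted p = 0.16), and Csf1r had 18.3, 51.8 and 36.3 CPM and 4.80 and 6.88 CPM (adjusted p = 0.072). The summed markers of macrophages came to 276, 274 and 159 CPM in the IL6_STAT3KO libraries and 263 and 269 CPM in the GFP libraries, and those of Kupffer cells to 639, 793 and 777 CPM and 568 and 605 CPM. A sum is carried by its abundant members, and C6 and Slc40a1, which are large parts of the Kupffer sum, were as high or nearly as high with the GFP plasmid. Of 8 B cell markers, Cd79b and Blnk had a row, and their sum was 1.86, 3.66 and 2.22 CPM in the IL6_STAT3KO libraries and 2.56 and 0.206 CPM in the GFP libraries. The summed dendritic cell markers were 238, 381 and 301 CPM and 170.2 and 169.6 CPM, nearly all of it Bst2, which is itself interferon-induced. Flt3 and Cd209a, dendritic cell genes, did not exceed 0.292 CPM in any of the 5 libraries.

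The class II sum was 2018, 1255 and 3074 CPM in the IL6_STAT3KO libraries, highest in replicate 3 and lowest in replicate 2. In replicate 3 the macrophage sum was the lowest of the group, Csf1r and the Kupffer sum lay between the other replicates, and the T cell sum was the highest. The DDC_STAT3KO libraries, with 80.6, 80.8 and 11.4 CPM of Clec4f, and the DDC libraries, with 44.6 and 99.2 CPM, held more of this marker than IL6_STAT3KO in 4 of their 5 libraries. Their Cd74 level was 34.3, 79.5 and 7.63 CPM in the DDC_STAT3KO libraries and 27.4 and 56.8 CPM in the DDC libraries, all under the lowest IL6_STAT3KO library. Within DDC_STAT3KO replicate 3 was lowest in both Clec4f and Cd74, and within DDC replicate 1 was lower in both. The part of antigen-presenting cells in the class II result was not tested.

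**Figure D3:**
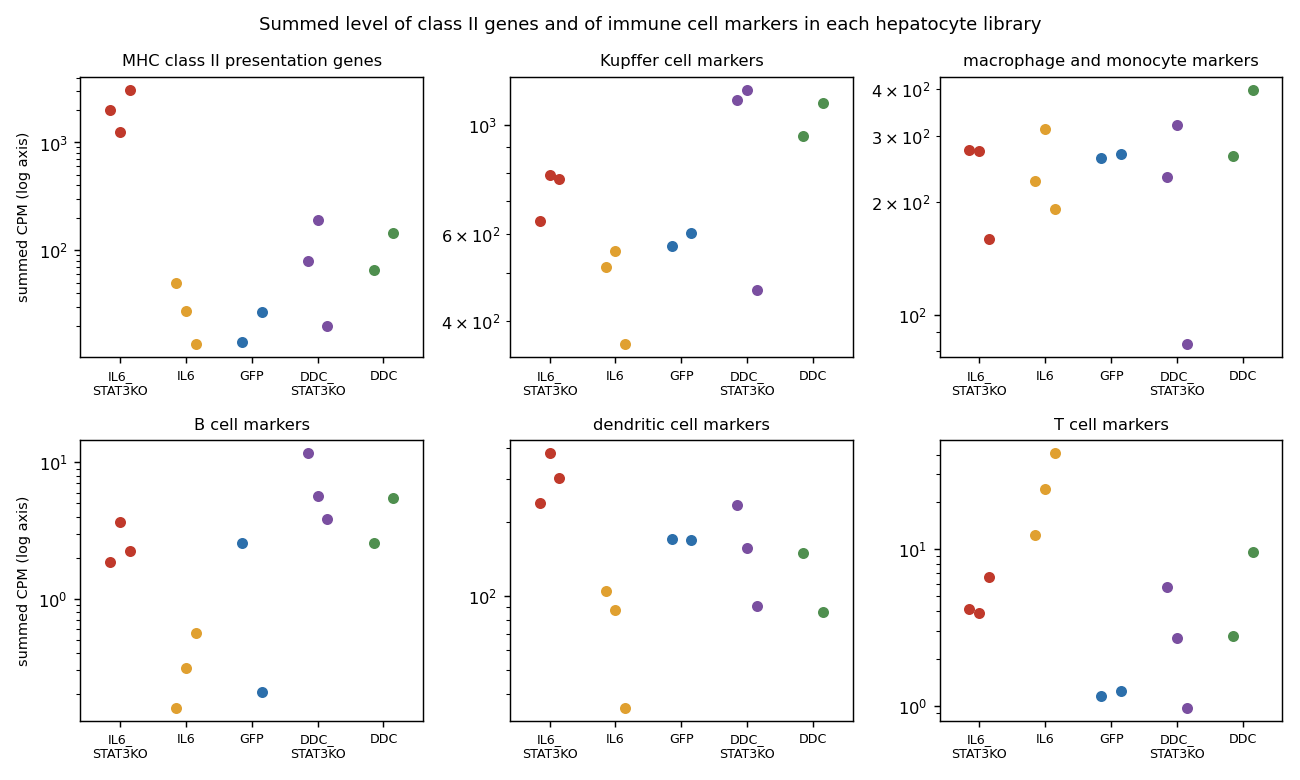
Summed CPM (log axis) of the MHC class II genes and of the markers of 5 immune cell types in each hepatocyte library, 1 point per library, for IL6_STAT3KO, IL6, GFP, DDC_STAT3KO and DDC. The class II sum lies at 1255 to 3074 CPM in IL6_STAT3KO and at most at 191 CPM in every other library. The marker sums of IL6_STAT3KO fall within the pooled range of all other groups for macrophages, Kupffer cells, B cells and T cells. Against the GFP libraries alone, every IL6_STAT3KO library lies above both for Kupffer cells, T cells and dendritic cells. The IL6_STAT3KO and GFP libraries overlap for macrophages and B cells.

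Among 10 interferon-induced chemokines and surface ligands, 4 rose. Cd274, which encodes the checkpoint ligand PD-L1, had 28.5, 17.3 and 56.4 CPM in the IL6_STAT3KO libraries, against 1.02 and 0.344 CPM in the GFP libraries (5.61 ± 0.66, adjusted p = 6.2e-04). Tnfsf10, the death ligand TRAIL, had 61.6, 34 and 67.6 CPM, against 3.90 and 1.99 CPM (4.20 ± 0.50, adjusted p = 6.4e-04). Both kept their call with each library left out. Cxcl9, a T cell attractant, had 62, 72.3 and 244 CPM, against 2.18 and 5.57 CPM (5.03 ± 0.94, adjusted p = 0.012; 0.19 without GFP replicate 1 and 0.10 without GFP replicate 2). The summed T cell markers were 4.15, 3.91 and 6.65 CPM in the IL6_STAT3KO libraries and 1.15 and 1.24 CPM in the GFP libraries, mostly Cd4. Of 16 cell death and inflammasome genes tested, 4 were called higher, beside 2.26% of all genes, with a median log2 fold change of 1.29. The count was 2 without IL6_STAT3KO replicate 1, 2 without replicate 2 and 3 without replicate 3. In IL6 against GFP, 9 of these 16 genes were called higher and 1 lower, with a median of 1.11. Mlkl, the executioner of necroptosis, had 18.9, 28.1 and 30.8 CPM in IL6_STAT3KO, against 3.97 and 3.85 CPM in GFP. Its log2 fold change was 2.73 ± 0.34 (adjusted p = 8.7e-04). Ubd, a ubiquitin-like modifier, had 52.8, 67.2 and 231 CPM in the IL6_STAT3KO libraries, against 0 and 0.138 CPM in the GFP libraries. With 2 counts over the GFP libraries, this is a ratio of 1799 with a 95% counting interval of 498 to 14859 (adjusted p = 0.019; 0.22 without GFP replicate 1 and 0.18 without GFP replicate 2).

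Fewer GBP, IRG, antiviral, class I and class II genes were called higher with the IL-6 plasmid in mice with intact Stat3. The IL6_STAT3KO and IL6 comparisons with GFP share the GFP libraries, so their values are set side by side without a test of likeness. In IL6 against GFP, 1 GBP was called higher and 2 lower, 2 IRGs higher and 1 lower, 3 antiviral genes higher and 4 lower, 7 class I genes higher and 2 lower, and no class II gene either way, beside 13.7% of all genes higher and 12.2% lower. The direct test of IL6_STAT3KO against IL6, in which 13% of all genes were called higher, called 11 of 11 GBPs, 9 of 10 IRGs, 35 of 39 antiviral, 17 of 22 class I and 7 of 7 class II genes higher. Genes that met the naming conditions (called, a mean of 20 CPM or more, no overlap, not a predicted gene), were called higher in IL6_STAT3KO against IL6 and had an unadjusted p of 0.05 or more in IL6 against GFP numbered 68 and were led by Tgtp2, Cd74, Ly6a, H2-Aa, H2-DMa, Ifi44, Gbp9, Gbp6, Gbp3 and H2-Ab1. Ly6a, the surface protein Sca-1, had 99.6, 149 and 192 CPM in the IL6_STAT3KO libraries and 1.499, 1.85 and 1.81 CPM in the IL6 libraries, against 1.73 and 0.963 CPM in the GFP libraries (6.76 ± 0.76 over GFP, adjusted p = 4.9e-04). The IL6 and GFP libraries overlapped and the IL6_STAT3KO libraries stood above both.

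Among genes that met the naming conditions, 14 were called higher in IL6_STAT3KO and lower in IL6, and 3 were called lower in IL6_STAT3KO and higher in IL6. Gbp10 had 237, 204 and 438 CPM in the IL6_STAT3KO libraries and 0.0789, 0.0616 and 0.561 CPM in the IL6 libraries, against 5.82 and 3.09 CPM in the GFP libraries. It was called higher in IL6_STAT3KO (6.03 ± 0.71, adjusted p = 6.1e-04) and lower in IL6 (-4.16 ± 0.78, adjusted p = 0.0025), and the direct difference was 10.19 ± 0.76 (adjusted p = 5.7e-06). Ifit3, an antiviral protein that stabilises IFIT1, had 51.9, 49.5 and 141 CPM in the IL6_STAT3KO libraries and 1.18, 2.22 and 1.18 CPM in the IL6 libraries, against 4.80 and 5.43 CPM in the GFP libraries, and its near copy Ifit3b moved in the same directions. The calls of Ifit3 (0.059) and Ifit3b (0.11) in IL6_STAT3KO were lost without GFP replicate 1, and that of Ifit3b also without GFP replicate 2 (0.10). Wsb1, a ubiquitin ligase component, turned the other way, with 15.2, 19.2 and 9.15 CPM in the IL6_STAT3KO libraries and 193, 116 and 112 CPM in the IL6 libraries, against 88.2 and 52.2 CPM in the GFP libraries (-2.27 ± 0.33 in IL6_STAT3KO, adjusted p = 0.0028; 0.062 without GFP replicate 1). Rp9 and Hnrnpa0 were the other genes of this kind called lower in IL6_STAT3KO and higher in IL6, with log2 fold changes of -0.78 and -0.71 in IL6_STAT3KO and 1.16 and 0.79 in IL6.

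**Figure D4:**
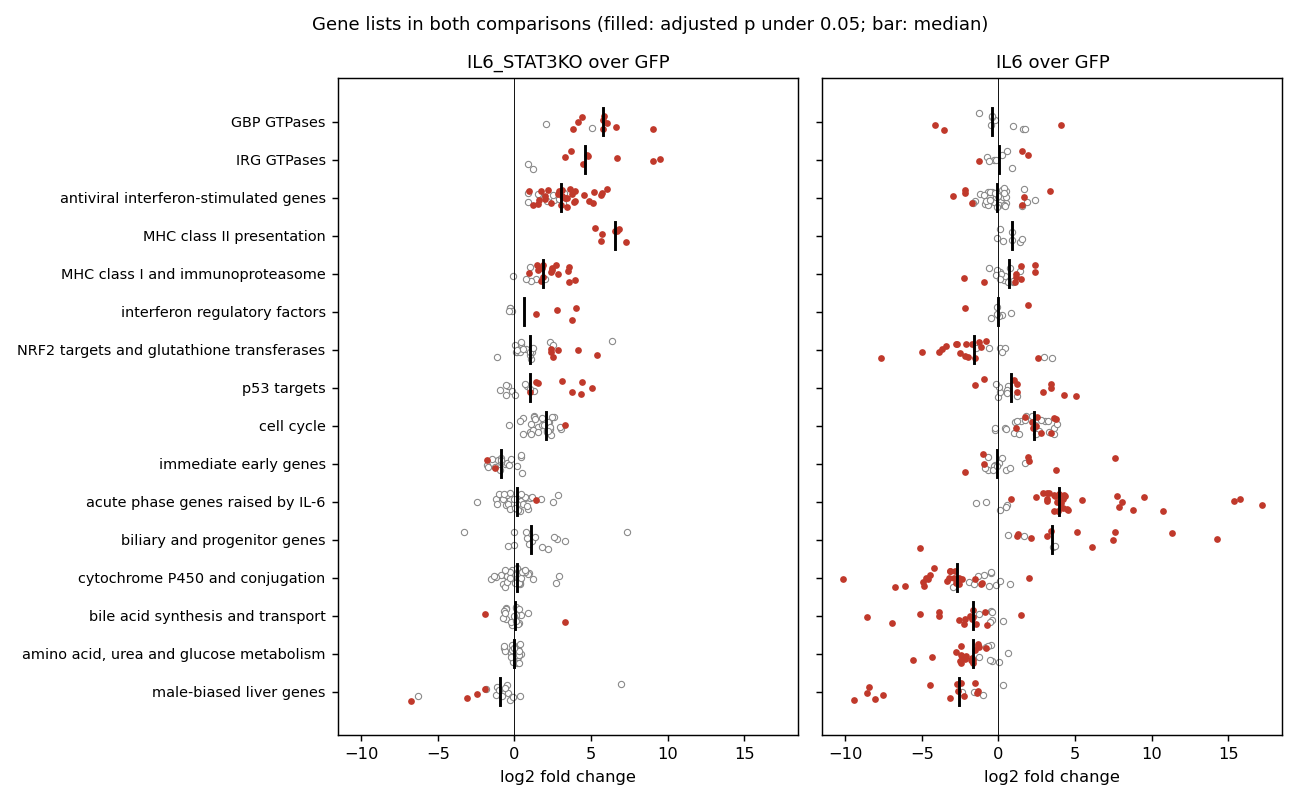
Log2 fold change of each tested member of 16 gene lists, for IL6_STAT3KO over GFP (left) and IL6 over GFP (right), which share the GFP libraries. Filled points are called and bars are list medians. The interferon lists lie right of 0 in the left panel, with medians of 5.76 for GBPs and 4.61 for IRGs, and acute phase genes lie right of 0 in the right panel, with a median of 3.92 against 0.15 in the left panel.

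The other STAT3KO hepatocytes of the series held lower levels of these genes. IL6_STAT3KO against DDC_STAT3KO compares mice with the same genotype and Cre vector that differed in plasmid and diet, and 5.01% of all genes were called higher and 4.83% lower. Called higher were 9 of 11 GBPs, 9 of 10 IRGs, 26 of 39 antiviral, 18 of 22 class I and 7 of 7 class II genes, and none was called lower. Gm12250 had 2.03, 1.36 and 1.35 CPM in the DDC_STAT3KO libraries, and Irf8 had 4.94, 9.62 and 4.11 CPM. DDC_STAT3KO against DDC, where the Cre and GFP vectors were compared in floxed mice on the diet, gave 0 calls over all genes in edgeR, 803 genes at an unadjusted p under 0.05, and 2 higher and 7 lower in DESeq2.

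The acute phase programme, the classical outcome of IL-6 in hepatocytes, was nearly level with GFP. Of 35 acute phase genes tested, 1 was called higher and none lower in IL6_STAT3KO, with a median log2 fold change of 0.15. In IL6 against GFP, 30 of the 35 were called higher, with a median of 3.92, and 31 were called lower in IL6_STAT3KO than in IL6, where 13.4% of all genes were. Saa1, serum amyloid A, had 21.8, 37.9 and 17.4 CPM in the IL6_STAT3KO libraries and 11907, 13898 and 16135 CPM in the IL6 libraries, against 31.9 and 72 CPM in the GFP libraries (-1.01 ± 0.63 over GFP, adjusted p = 0.41). The gene that passed was Hpx, which encodes the haem carrier hemopexin. It had 6998, 10467 and 9445 CPM in the IL6_STAT3KO libraries and 62127, 61793 and 59322 CPM in the IL6 libraries, against 3325 and 3404 CPM in the GFP libraries (1.41 ± 0.32, adjusted p = 0.033). Its groups did not overlap, but the call was lost without IL6_STAT3KO replicate 2 (0.10) or 3 (0.094) and without GFP replicate 1 (0.30) or 2 (0.27). Lcn2, lipocalin 2, had 25.3, 113 and 30.8 CPM in the IL6_STAT3KO libraries and 1.79 and 14 CPM in the GFP libraries (adjusted p = 0.082, and 0.049 without GFP replicate 2). Orm2, an acid glycoprotein, had 20.8, 15.2 and 51.2 CPM and 5.76 and 4.61 CPM (adjusted p = 0.13). For both genes every IL6_STAT3KO library lay above both GFP libraries and far below the IL6 libraries.

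Socs3, the feedback inhibitor of gp130, had 6.68, 4.53 and 3.96 CPM in the IL6_STAT3KO libraries and 270.1, 292 and 216 CPM in the IL6 libraries, against 11.6 and 12 CPM in the GFP libraries. Every IL6_STAT3KO library was below both GFP libraries, but the difference did not pass (-1.22 ± 0.34, adjusted p = 0.077). Of 19 STAT3 survival and growth targets tested, Junb, Vegfa and Pim3 were called lower and none higher. Junb, an AP-1 subunit, had 130.3, 54.4 and 78.1 CPM in the IL6_STAT3KO libraries, against 277 and 323 CPM in the GFP libraries (-1.78 ± 0.30, adjusted p = 0.0066; 0.052 without GFP replicate 1 and 0.086 without GFP replicate 2). Pim3, a survival kinase, had 133, 71.7 and 58.5 CPM, against 238 and 388 CPM, and Vegfa, the endothelial growth factor, had 132, 68.3 and 83.4 CPM, against 215 and 218 CPM. Both of these lost their call without IL6_STAT3KO replicate 2 (0.13 and 0.12), without replicate 3 (0.13 and 0.12), without GFP replicate 1 (0.10 and 0.21) or without GFP replicate 2 (0.31 and 0.22). In the gp130 list, Il11ra1, the IL-11 receptor, was lower (24.3, 17.8 and 17.3 CPM against 69.1 and 64.7 CPM, adjusted p = 0.031), a call that held without IL6_STAT3KO replicate 1 and was lost without each of the other 4 libraries, at 0.11 to 0.20. Sox9, a progenitor and biliary factor, had 2.91, 7.33 and 6.82 CPM in the IL6_STAT3KO libraries and 96, 87.2 and 88.7 CPM in the IL6 libraries, against 3.01 and 2.13 CPM in the GFP libraries (1.14 ± 0.49, adjusted p = 0.23). None of the 16 biliary and progenitor genes tested was called in IL6_STAT3KO, beside 2.26% of all genes called higher, but their median log2 fold change was 1.05. In 8 of the 16 every IL6_STAT3KO library lay above both GFP libraries and in 1 below, where 22.2% and 22.4% of all genes did. The summed level of the list was 645, 967 and 914 CPM in the IL6_STAT3KO libraries, against 466 and 377 CPM in the GFP libraries.

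**Figure D5:**
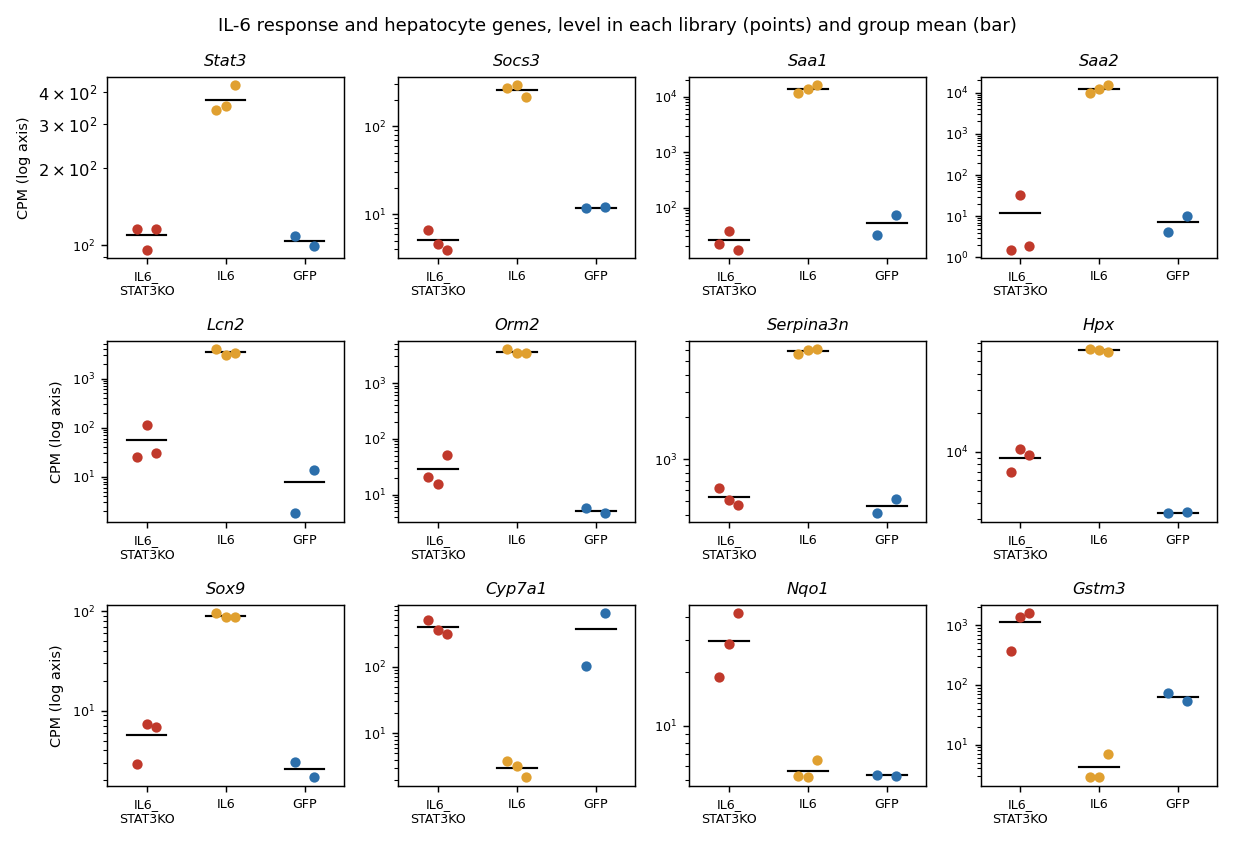
Level of 12 IL-6 response and hepatocyte genes in each IL6_STAT3KO, IL6 and GFP library (points, CPM on a log axis), with the group mean as a bar. Socs3, Saa1 and Sox9 in IL6_STAT3KO lie near the GFP libraries and far below the IL6 libraries, while Gstm3 is highest in IL6_STAT3KO, at 365 to 1596 CPM against 53.5 and 72.7 CPM with the GFP plasmid.

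Several lists of hepatocyte function held no called gene. None of the 34 cytochrome P450 and conjugation genes, 28 amino acid, urea and glucose genes, 23 fatty acid oxidation genes, 26 lipid synthesis genes, 26 complement genes, 23 coagulation genes, 23 unfolded protein response genes, 21 hepatocyte transcription factors or 18 hepatocyte markers tested was called in IL6_STAT3KO against GFP. The medians of these lists lay between -0.32 and 0.32. Over all genes 2.26% were called higher and 0.865% lower, and the absence of calls does not show that a list was unchanged. In 11 of the 23 fatty acid oxidation genes every IL6_STAT3KO library lay below both GFP libraries, and in none above. For the 23 coagulation genes these counts were 11 lower and 2 higher, and for the 26 complement genes 8 lower and 13 higher. Of all genes, 22.4% lay apart in the lower direction and 22.2% in the higher. In the same fit, 23 of the P450 and conjugation genes and 20 of the amino acid, urea and glucose genes were called higher in IL6_STAT3KO than in IL6. Over all genes this share was 13%. Cyp7a1, which sets the pace of bile acid synthesis, had 499.8, 355 and 309 CPM in the IL6_STAT3KO libraries and 3.79, 3.20 and 2.18 CPM in the IL6 libraries, against 103 and 636 CPM in the GFP libraries. The GFP libraries lay so far apart in this gene that the IL6_STAT3KO range fell between them (adjusted p = 0.98). Of 22 bile acid genes tested, Abcc4, an efflux pump of the sinusoidal membrane, rose to 14, 12.6 and 8.98 CPM in the IL6_STAT3KO libraries, against 1.28 and 1.17 CPM in the GFP libraries (3.27 ± 0.39, adjusted p = 6.4e-04), with each library left out as well. Slco1a1, an organic anion uptake carrier, fell to 251, 131 and 473 CPM, against 1199 and 950.0 CPM (-1.91 ± 0.40, adjusted p = 0.024), a call lost without IL6_STAT3KO replicate 1 (0.070), GFP replicate 1 (0.20) or GFP replicate 2 (0.11). Of 16 periportal genes tested, Aldh1b1, a mitochondrial aldehyde dehydrogenase, was called higher (1.39 ± 0.33, adjusted p = 0.038), a call lost with any of the 5 libraries left out, and of 16 pericentral genes Gstm3 was.

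NRF2 is the factor of the oxidative stress response. Of 24 NRF2 targets and glutathione transferases tested, 6 were called higher, beside 2.26% of all genes, with a median log2 fold change of 1.03. The count was 1 without GFP replicate 1 and 1 without GFP replicate 2. Nqo1, a quinone reductase, had 18.6, 28.4 and 42.2 CPM in the IL6_STAT3KO libraries and 5.29, 5.18 and 6.42 CPM in the IL6 libraries, against 5.31 and 5.29 CPM in the GFP libraries (2.49 ± 0.32, adjusted p = 9.6e-04), and it was called with each library left out. Srxn1, which restores peroxiredoxins, had 113, 143 and 288 CPM, against 34.1 and 36.6 CPM (adjusted p = 0.014). Gstm3, a glutathione transferase, had 365, 1390.5 and 1596 CPM in the IL6_STAT3KO libraries and 2.92, 2.83 and 6.86 CPM in the IL6 libraries, against 72.7 and 53.5 CPM in the GFP libraries (4.15 ± 0.72, adjusted p = 0.0083). It was thus called higher in IL6_STAT3KO and lower in IL6 (-3.90, adjusted p = 0.0011), as was Gsta1 (5.36 and -3.71). Both transferases belong to families with near copies, and their level was lowest in IL6_STAT3KO replicate 1.

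Targets of p53, the DNA damage factor, included 8 called higher among 18 tested, beside 2.26% of all genes, with a median log2 fold change of 1.00. No call held without GFP replicate 1, and 1 held without GFP replicate 2. Cdkn1a, the cell cycle inhibitor p21, had 40.0, 101 and 33 CPM in the IL6_STAT3KO libraries and 90.5, 44.4 and 85.9 CPM in the IL6 libraries, against 2.56 and 11.2 CPM in the GFP libraries (3.08 ± 0.69, adjusted p = 0.033; 0.083 without IL6_STAT3KO replicate 2 and 0.27 without GFP replicate 1). Ccng1, cyclin G1, had 86.4, 144 and 77.8 CPM, against 37.8 and 41.2 CPM (1.38 ± 0.25, adjusted p = 0.011), and Fas, a death receptor, had 26.9, 38.7 and 42.5 CPM, against 13.6 and 11.6 CPM (adjusted p = 0.011). Replicate 2 was the highest of the IL6_STAT3KO libraries for Cdkn1a and Ccng1. In IL6 against GFP, 8 of the 18 p53 targets were called higher and 2 lower, with a median of 0.81. In IL6_STAT3KO against IL6, 1 of them was called higher and none lower. Of 32 cell cycle genes tested, Mcm6, a helicase subunit of DNA replication, was called (10.9, 46.3 and 19.5 CPM against 3.07 and 2.2 CPM, adjusted p = 0.033), a call lost without IL6_STAT3KO replicate 2 or 3 or either GFP library, at 0.057 to 0.27. In 28 of the 32 every IL6_STAT3KO library lay above both GFP libraries, where 22.2% of all genes did, and the sum of all 32 was 270.4, 671 and 271 CPM, against 131 and 153 CPM.

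What stayed, in the sense of being called in the same direction with the IL-6 plasmid with and without Stat3 and having an unadjusted p of 0.05 or more between those 2 groups, was a mixed set of 20 higher and 19 lower genes among those that met the naming conditions. The 5 with the largest increases were Mpeg1, Ifi27l2b, Il18bp, Cd36 and Cdkn1a. Mpeg1, a pore-forming protein best known from macrophages, had 422, 469 and 609 CPM in the IL6_STAT3KO libraries and 262, 232 and 210.0 CPM in the IL6 libraries, against 22.1 and 31.3 CPM in the GFP libraries (4.23 ± 0.69, adjusted p = 0.0056; 0.11 without GFP replicate 1 and 0.081 without GFP replicate 2). Macrophage markers, whose values are given above, had a median log2 fold change of 1.76 with none called, and their part in the Mpeg1 result was not tested. Il18bp, the secreted decoy that binds IL-18, had 28, 47.8 and 53.1 CPM in the IL6_STAT3KO libraries and 58.9, 67.5 and 79.8 CPM in the IL6 libraries, against 3.20 and 4.33 CPM in the GFP libraries (3.51 ± 0.47, adjusted p = 0.0016; 0.052 without GFP replicate 1). Cd36, a fatty acid transporter, had 32, 118 and 142 CPM and 84, 40.4 and 144 CPM, against 9.02 and 11.8 CPM in the GFP libraries (3.23 ± 0.63, adjusted p = 0.017; 0.20 without GFP replicate 1 and 0.16 without GFP replicate 2). Ifi27l2b, an interferon-inducible mitochondrial protein family member, was called with every library left out, at 39.7, 79.7 and 59.5 CPM and 71.6, 60.2 and 33.7 CPM, against 4.29 and 5.91 CPM (3.55 ± 0.42, adjusted p = 6.4e-04). Socs1 met the same pattern but not the mean of 20 CPM, with 24.4, 8.26 and 31.8 CPM in the IL6_STAT3KO libraries and 24.6, 29.9 and 15.8 CPM in the IL6 libraries, and was singled out after its values were seen. An unadjusted p of 0.05 or more does not show that the IL6_STAT3KO and IL6 levels were equal.

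On the lower side the 5 with the largest decreases were Mup15, Mup14, Serpina4-ps1, Mup3 and Nr1d1. The Mup genes encode major urinary proteins, pheromone carriers secreted by the liver under growth hormone control, and are near copies between which reads may be split. Mup3 fell to 1422, 1423 and 2668 CPM in the IL6_STAT3KO libraries and 935, 1356 and 2294 CPM in the IL6 libraries, against 11159 and 8550.4 CPM in the GFP libraries (-2.42 ± 0.59, adjusted p = 0.048), a call lost with any of the 5 libraries left out, at 0.073 to 0.28. Mup15 had 2 counts over the IL6_STAT3KO libraries, against 69.4 and 114 CPM in the GFP libraries, a ratio of 2239.7 in favour of GFP with a 95% counting interval of 619 to 18503 (adjusted p = 0.011; lost at 0.052 to 0.076 without IL6_STAT3KO replicate 2 or 3 or either GFP library). Nr1d1, the clock repressor REV-ERB alpha, had 18.6, 15.1 and 21.3 CPM in the IL6_STAT3KO libraries and 18.5, 31.2 and 16.5 CPM in the IL6 libraries, against 102 and 66.6 CPM in the GFP libraries (-2.19 ± 0.27, adjusted p = 7.7e-04), and held with each library left out. The labels used here give no hour of collection. Serpina4-ps1, a pseudogene, had 15, 18.9 and 9.62 CPM and 16.9, 0.739 and 4.61 CPM, against 144 and 851 CPM in the GFP libraries, which differ widely from each other (adjusted p = 0.025, lost at 0.073 to 0.27 without any library but GFP replicate 1). Of 18 male-biased liver genes tested, 4 were called lower (Mup11, Slco1a1, Hsd3b5 and Mup3), beside 0.865% of all genes. In 10 of the 18 every IL6_STAT3KO library lay below both GFP libraries and in 1 above, where 22.4% and 22.2% of all genes did. None of the 15 female-biased genes tested was called, beside 2.26% of all genes called higher. In 6 of them every IL6_STAT3KO library lay above both GFP libraries and in none below. Their median log2 fold change was 2.90, or 1.38 with genes lacking counts in 1 group entered at a bound. None of the 4 sex-linked genes tested was called, with log2 fold changes of -0.08 to 0.38 and a median of 0.06. In 1 of these 4 every IL6_STAT3KO library lay above both GFP libraries. Hsd3b5, a steroid dehydrogenase isoform of male mouse liver, had 7.12, 14.4 and 61.4 CPM in the IL6_STAT3KO libraries and 0.237, 0.123 and 0.623 CPM in the IL6 libraries, against 325 and 151 CPM in the GFP libraries (-3.10 ± 0.70, adjusted p = 0.038), a call lost without IL6_STAT3KO replicate 1 (0.055) or 2 (0.13) or GFP replicate 1 (0.30) or 2 (0.098). Hsd3b2, a related enzyme, fell with every library left out, to 41.9, 46.4 and 52.7 CPM in the IL6_STAT3KO libraries and 5.13, 3.20 and 4.24 CPM in the IL6 libraries, against 252 and 172 CPM in the GFP libraries (-2.17 ± 0.29, adjusted p = 0.0016).

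Among genes that met the naming conditions, 13 were newly lower, called lower against both GFP and IL6 hepatocytes with an unadjusted p of 0.05 or more in IL6 against GFP, and the 10 with the largest decreases were Junb, Slc10a2, Serpina11, Rpl36, Rps28, Mrpl34, Rps2, Mrps24, Fau and Eef1b2. Slc10a2, the bile acid transporter ASBT, had 22.6, 38.9 and 45.4 CPM in the IL6_STAT3KO libraries and 123, 173 and 132 CPM in the IL6 libraries, against 105 and 89 CPM in the GFP libraries (-1.44 ± 0.29, adjusted p = 0.018; 0.050 without IL6_STAT3KO replicate 2, 0.18 without GFP replicate 1 and 0.094 without GFP replicate 2). Rpl36, Rps28, Rps2 and Fau encode proteins of the cytosolic ribosome, Mrpl34 and Mrps24 of the mitochondrial ribosome, and Eef1b2 an elongation factor subunit. Rps2 had 364, 401 and 406 CPM in the IL6_STAT3KO libraries and 713, 739.7 and 484 CPM in the IL6 libraries, against 759 and 837 CPM in the GFP libraries (-1.03 ± 0.24, adjusted p = 0.042). Of these 7 translation genes, the calls of Mrpl34 and Mrps24 held without each IL6_STAT3KO library, and all 7 were lost without GFP replicate 1 or GFP replicate 2, at 0.059 to 0.29. Of 19 immediate early genes tested, Junb and Ier2 were called lower, beside 0.865% of all genes, with a median log2 fold change of -0.87. In 12 of the 19 every IL6_STAT3KO library lay below both GFP libraries and in 1 above, where 22.4% and 22.2% of all genes did. The number called lower was 8 without IL6_STAT3KO replicate 1, but 1 without replicate 2 and 1 without replicate 3. Replicate 1 held the highest sum of these genes in its group. The sums were 1786, 765 and 797 CPM in the IL6_STAT3KO libraries, against 1996 and 2428 CPM in the GFP libraries.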

How the data were processed

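Gene expression was measured by RNA sequencing of sorted liver hepatocytes. The authors deposited 1 table of raw gene counts for the 13 hepatocyte libraries, which was used here, and the immune cell table was not used. The submitters' processing notes name mm10, STAR, HTSeq and DESeq2, and their versions and the strand setting were not given in the sources used here. Counting that shares or drops reads of near copies would affect the Tgtp, Gbp, H2-Q, Gst, Mup and Ifit3 genes. Per the labels' protocols, livers were perfused, cells sorted, RNA taken with Trizol and libraries made with a TruSeq kit.

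The table held 18668 genes, none with a total under 10 counts, and an EGFP row that was left out of library sizes and tests. All columns matched a sample, and gene symbols were taken from GENCODE M21 (GRCm38), as were coordinates. Counts were fitted in R 4.3.3 with edgeR 4.0.16 (TMM, filterByExpr by group, 1 term per group, quasi-likelihood F test, 8 residual degrees of freedom), which shares 1 estimate of spread because GFP has 2 libraries. Adjusted p-values are from this edgeR fit with Benjamini-Hochberg adjustment over 14339 genes, and the SE is the absolute log2 fold change over the square root of F. The code was tested on simulated counts. Libraries of 13625040 to 18428988 counts and counting intervals at 95% (exact) cover counting error only, and a group with 1 to 3 counts is given as a ratio with such an interval. Promoters came from RefSeq (GRCm38.p6), matched by symbol for 10630 of the 14339 genes.

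The comparison, gene lists and tests were chosen with earlier results of these data known. Genes were named by size (10 in each direction, called, at a mean of 20 CPM or more, no overlap, no predicted gene), by list (the 5 smallest adjusted p), as staying, new or turned against the IL6 group, or as regulators named whatever their result. Other genes named in the text were chosen after their values were seen, among them Saa1, Lcn2, Orm2, H2-K1, Ciita, Oasl2, Parp14, Isg15, Rsad2, Clec4f, Ifnar1, Ifngr1, Cyp7a1, Gbp2b and Gbp11. The alternatives were median-of-ratios factors, no filter, a replicate block, a fit of the compared groups only, a fit without the libraries that stood apart, DESeq2 1.42.0, a minimum log2 fold change of 1, and leaving out single libraries. Replicate numbers are shared between the groups but the labels tie them to nothing. Results for some genes are not reported here.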

Additional observations from a re-analysis of the deposited data

Results flagged for a closer look

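EGFP transcripts, counted in a row outside the comparisons, were found beyond the level of the GFP plasmid group in some libraries. The row held 9.23, 5.73 and 486 CPM in the IL6 libraries 1, 2 and 3, and 1185 and 1228 CPM in the DDC libraries, whose mice had received AAV-TBG-GFP. The IL6_STAT3KO libraries held 0.866, 0.559 and 1.34 CPM, against 2.18 and 2.41 CPM in the GFP plasmid libraries. Both groups of the main comparison were thus low, and the GFP libraries held little EGFP 1 week after the GFP plasmid. In the IL6 libraries, replicate 3 was highest in both EGFP and Il6. Which construct the reads came from was not tested.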

How the results depend on the processing

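In IL6_STAT3KO against GFP the number of calls differed between alternatives: 586 higher and 341 lower in a fit of the compared groups only, 775 and 400 without the libraries that stood apart (IL6 replicate 3 and DDC_STAT3KO replicate 3), and 778 and 352 in DESeq2. With single libraries left out the counts ranged from 78 to 328 higher and 11 to 106 lower. IL6_STAT3KO against IL6 had 1183 genes higher with a log2 fold change over 1, and 1297 to 1698 higher and 1264 to 1781 lower with single libraries left out. IL6 against GFP ranged from 755 to 1958 higher and 896 to 1729 lower, lowest without GFP replicate 2. IL6_STAT3KO against DDC_STAT3KO ranged from 370 to 588 higher and 232 to 500 lower, lowest without IL6_STAT3KO replicate 3. That comparison had 338 higher and 220 lower in a fit of its groups only, 1254 higher without the libraries that stood apart, and 417 lower with a log2 fold change over 1. The numbers of the replicates do not establish pairs. Deviations of same-numbered libraries correlated at 0.0532 and 0.115, but these values cannot decide on pairing. Only 2 pairs exist, and with 2 GFP libraries each value recurs with the opposite sign against the other GFP library. With the replicate block, 426 genes were higher and 115 lower, and the Stat3 log2 fold change turned to -0.038 (adjusted p = 0.94). Of 95 named genes that were called, 81 were called under every alternative that kept all compared libraries, and 36 also remained called with every library left out. No called gene reversed under these settings. Median-of-ratios factors shifted the median gene by less than 0.001 and changed no call among named genes. The cause of these shifts was not tested.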

Other observations

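Lists of ribosomal protein and major urinary protein genes were put together after single members had been seen among the lower genes, so their values describe these libraries and carry no test as lists. Of 81 cytosolic ribosomal protein genes tested, 80 had a negative log2 fold change in IL6_STAT3KO against GFP, with a median of -0.69, and 5 were called lower, beside 0.865% of all genes. Their summed level was 7346, 10043 and 9207 CPM in the IL6_STAT3KO libraries and 16731, 16928 and 12443 CPM in the IL6 libraries, against 13455 and 14273 CPM in the GFP libraries. Each IL6_STAT3KO library lay below both other groups. The DDC_STAT3KO libraries held 12170.0, 10054 and 16206 CPM and the DDC libraries 10018 and 10391 CPM. Of 76 mitochondrial ribosomal protein genes, 2 were called lower, with a median of -0.29.

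Of 19 major urinary protein genes tested, 8 were called lower and none higher, with a median log2 fold change of -2.11. Their summed level was 1939, 1719 and 4252 CPM in the IL6_STAT3KO libraries and 1069, 1687 and 2552 CPM in the IL6 libraries, against 15882 and 12416 CPM in the GFP libraries. The DDC_STAT3KO libraries held 8532, 3474 and 292 CPM and the DDC libraries 2413 and 893 CPM, so the level was below that of the GFP libraries in every other hepatocyte library.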
